A study of Mus musculus with 15 samples.

Results

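The genes described here are the 7 that carry and regulate the sterol-sensing step of lipid synthesis: Srebf1, Srebf2, Scap, Insig1, Insig2, Mbtps1 and Mbtps2. They were taken by gene name from the liver and lung count tables, which each list 54532 genes, and all 7 passed the filter on low counts in both tissues. The study fed male wild-type C57BL/6J mice a control diet (CS group) or the same diet with 2% phytosterols (PS group). The labels give an age of 28 weeks. The study assigns that span to feeding, begun in young mice, by which the mice were older than 28 weeks at collection. Livers of 4 CS and 5 PS mice were sequenced, and lungs of 3 mice of each group. By their labels, 6 of the 9 mice gave both tissues and each library came from 1 mouse. The comparisons made were PS against CS within each tissue, and lung against liver on each diet. No transgene or knockout was carried by any group.

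Phytosterols are plant sterols that compete with cholesterol for uptake in the intestine. Cells meet a shortage of sterol through the SREBP pathway: the precursors encoded by Srebf1 and Srebf2 sit in the membrane of the endoplasmic reticulum, bound to the escort protein SCAP. When sterol is plentiful, the INSIG proteins hold SCAP in that membrane. When sterol is scarce, SCAP carries the precursor to the Golgi, where site-1 protease (Mbtps1) and then site-2 protease (Mbtps2) release the fragment that enters the nucleus. SREBP-2 is known mainly for genes of cholesterol synthesis and uptake, and SREBP-1c for genes of fatty acid synthesis in the liver. Insig1 is itself a textbook SREBP target, while the liver transcript of Insig2 is known to be repressed by insulin. Counts per gene do not separate the isoforms of Srebf1 or Insig2, and mRNA says nothing of how much precursor was cut.

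The 7 genes lie on 7 chromosomes. In the files' coordinates, which match GENCODE M21 (GRCm38) for all 7 genes, Insig1 spans chr5:28071363-28078662 on the plus strand, Insig2 spans chr1:121304353-121332589 on the minus strand and Srebf2 spans chr15:82147181-82205379 on the plus strand. Srebf1 spans chr11:60199089-60222581 on the minus strand, Scap spans chr9:110333288-110384950 on the plus strand, Mbtps1 spans chr8:119508156-119558735 on the minus strand and Mbtps2 spans chrX:157535371-157598715 on the minus strand.

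The sequence upstream of 3 of these genes is shown because the values below turn on them: Insig1 and Insig2 differed most between diets or tissues, and Srebf2 encodes the precursor named for the cholesterol genes. Each is from RefSeq (GRCm38.p6), read 5′ to 3′ on the gene's own strand, and stops before the first base of the gene model in the files. Capitals mark an E-box, spelled CACGTG and the same on both strands. They also mark a CCAAT box, named by its letters, and a GC box, spelled GGGCGG, each searched on both strands. The Insig1 stretch is chr5:28071162-28071362, the Srebf2 stretch is chr15:82147019-82147180 and the Insig2 stretch, the outermost of 3 RefSeq starts, is chr1:121332590-121332839.
Insig1: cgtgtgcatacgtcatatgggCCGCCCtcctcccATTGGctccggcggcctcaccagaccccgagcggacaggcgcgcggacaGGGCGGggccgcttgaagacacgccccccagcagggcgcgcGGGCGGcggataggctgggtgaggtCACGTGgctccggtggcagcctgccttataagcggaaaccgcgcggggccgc
Srebf2: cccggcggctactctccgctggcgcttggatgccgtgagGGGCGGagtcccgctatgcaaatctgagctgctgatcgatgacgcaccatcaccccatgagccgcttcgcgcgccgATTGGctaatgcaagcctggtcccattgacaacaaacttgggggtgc
Insig2: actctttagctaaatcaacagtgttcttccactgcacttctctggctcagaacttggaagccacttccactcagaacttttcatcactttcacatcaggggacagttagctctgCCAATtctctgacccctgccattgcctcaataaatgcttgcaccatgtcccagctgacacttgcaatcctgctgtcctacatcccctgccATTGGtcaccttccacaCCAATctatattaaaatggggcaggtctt
The Insig1 stretch held 1 E-box, 1 CCAAT box and 3 GC boxes, whereas the Insig2 stretch held 3 CCAAT boxes and neither of the other motifs. The 250-base windows at the other 2 Insig2 starts each held 1 GC box and 0 CCAAT boxes. The Srebf2 stretch held 1 CCAAT box and 1 GC box, and its full 250-base window, which runs into the gene model, 1 and 4. Among the 250 bases upstream of all 32851 RefSeq starts, both strands searched, 6.02% held the E-box, 33.9% the CCAAT box and 32.7% the GC box. A core of the sterol element, TCACNCCAC (GTGGNGTGA on the other strand), was in 1.05% of all such windows. It was not in the windows of the 7 genes, which says only that these letters were not there.

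Srebf2 also holds the microRNA gene Mir33, at chr15:82198127-82198147 for its 5p arm. The mature 5p sequence from RefSeq, with the seed (bases 2 to 8) in capitals, is shown because this microRNA is known to be made from the Srebf2 transcript.
mmu-miR-33-5p: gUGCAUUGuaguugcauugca
The row of Mir33 was at 0 counts in all 15 libraries, which were made from polyadenylated RNA, so its level was not measured here.

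Total counts per library ran from 14410117 to 19396057, and the 7 genes were counted from 42 reads (Mbtps2, CS liver replicate 2) to 13837 reads (Insig2, CS liver replicate 4). Levels are given as CPM, read counts scaled to a common library size, after trimmed-mean (TMM) scaling within a tissue, or as CPM per kilobase of gene length after TMM scaling over all 15 libraries where genes or tissues are compared. The tissue labels held: 6 hepatocyte markers summed to between 58290 and 91370 CPM per kilobase in the livers against 1.83 to 37.5 in the lungs, and 5 alveolar type II markers to between 8469 and 16300 in the lungs against 2.14 to 6.79 in the livers. CS liver replicate 2 stood apart: its counts differed from those of the other 3 CS livers by a median chi-square of 14.4 to 20.1 per gene, against 3.08 to 7.81 among those 3. Without it, 4 of the 7 genes passed the unadjusted threshold for diet in the liver, against 2 (Insig1 and Scap) without CS replicate 1 or CS replicate 4, and the values that moved most are given without it too. In whole tissue, fewer cells of a type and less RNA per cell cannot be told apart.

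**Figure D1:**
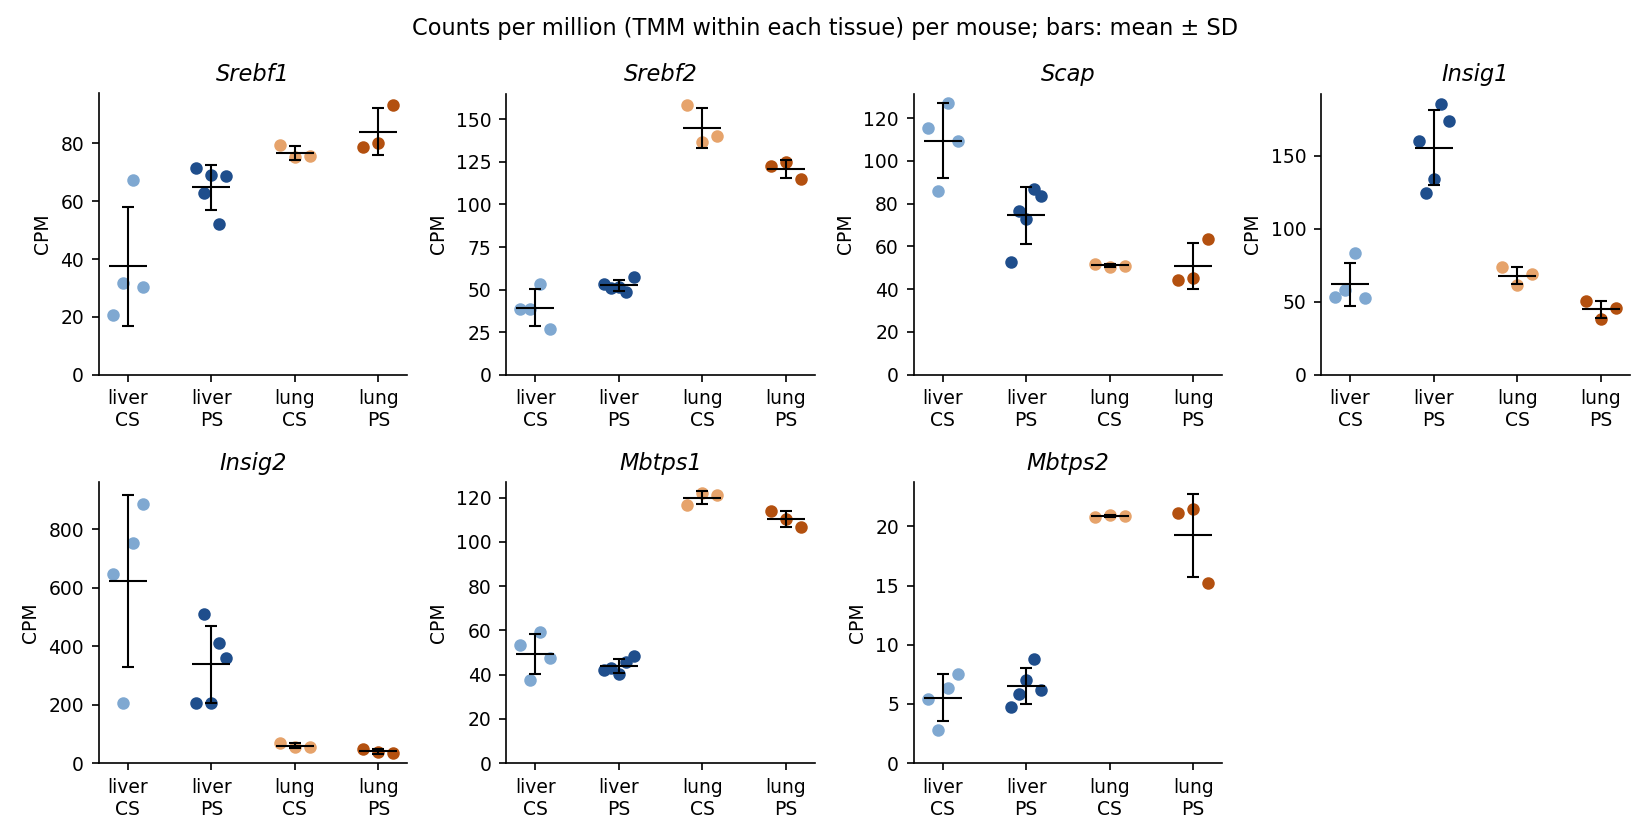
CPM (TMM-scaled within each tissue; linear axis from 0) of the 7 genes, with 1 point per mouse, 4 CS and 5 PS livers and 3 CS and 3 PS lungs; bars give the mean ± SD, and liver and lung are on separate scales. Insig1 in the liver ran from 52.8 to 83.2 CPM on the CS diet and from 125 to 185 on the PS diet, and in the lung from 61.5 to 73.6 and from 38.4 to 50.2.

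In the liver, the sensing genes did not move together with diet: Insig1 and Srebf1 were higher and Scap and Insig2 lower in the PS group. Insig1 differed most, at 2.52-fold, and Insig2 was 1.84-fold lower. By edgeR's quasi-likelihood test over 13195 genes, 4 of the 7 passed an unadjusted p of 0.05, with 2 higher and 2 lower. Over all genes tested 3.96% were higher and 3.58% lower at that threshold. After Benjamini-Hochberg adjustment over all genes, none of the 7 passed 0.05, and of all genes 0.00758% did (1 gene). At this adjusted threshold DESeq2 called 163 genes, 1 of the 7 among them, on the same counts.

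Insig1, the SREBP-induced retention protein, stood at 53.5, 57.9, 83.2 and 52.8 CPM in CS livers 1 to 4. In PS livers 1 to 5 it stood at 160.5, 125, 134, 185 and 174 CPM. Every PS liver was above every CS liver, and replicate 3 was the highest CS liver. The difference was 1.33 ± 0.21 on the log2 scale (SE; adjusted p = 0.0974, edgeR). The adjusted p was 0.0281 without CS replicate 2, 0.0486 without CS replicate 3, 0.0195 without the filter on low counts and 5.65e-07 with DESeq2. Those were the 4 of 18 alternatives in which Insig1 passed. In the other 7 of the 9 fits that left out 1 liver the adjusted p was between 0.0861 and 0.304, by limma it was 0.0641 or 0.0698, with the GC trend removed 0.0708 and with the replicate number as a block 1. Among all genes tested, 2.10% were higher in every PS liver than in every CS liver, and Insig1 was the only one of the 7 among them.

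Insig2, the other INSIG gene, went the other way. CS livers 1 to 4 had 648, 206, 752 and 886 CPM, and PS livers 1 to 5 had 206.5, 509, 207, 409 and 359.6 CPM. CS replicate 2 was as low as the lowest PS livers, while the other 3 CS livers were above all 5 PS livers. The log2 difference was −0.88 ± 0.40 (SE; adjusted p = 0.66, edgeR) and −1.17 without CS replicate 2 (adjusted p = 0.0988). Of the 9 fits that left out 1 liver, Insig2 passed the unadjusted threshold only in 2, those without CS replicate 2 and without PS replicate 2, and its difference was nearest to 0 without CS replicate 4, at −0.66.

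Scap, the escort, stood at 116, 85.8, 127 and 109 CPM in CS livers and at 52.5, 76.6, 73.1, 86.8 and 83.4 CPM in PS livers. The groups touched only where PS replicate 4 passed CS replicate 2. Scap was lower by 0.56 ± 0.19 on the log2 scale (SE; adjusted p = 0.473, edgeR), and it passed the unadjusted threshold in 9 of the 9 fits that left out 1 liver. With the trend over GC content removed it did not (log2 difference −0.51, adjusted p = 0.693).

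Srebf1, which encodes SREBP-1, varied more on the CS diet than on the PS diet, chiefly through CS replicate 3. CS livers had 20.5, 31.7, 67.4 and 30.2 CPM, and PS livers had 71.3, 62.7, 69.2, 52.0 and 68.7 CPM. CS replicate 3 lay within the PS range and the other 3 CS livers lay below it. The log2 difference was 0.79 ± 0.30 (SE; adjusted p = 0.541, edgeR), and 1.24 without CS replicate 3 (adjusted p = 0.105). It missed the unadjusted threshold without CS replicate 1 (0.58, adjusted p = 0.958) or CS replicate 4 (0.70, adjusted p = 0.635, edgeR) and passed it in 7 of the 9 fits that left out 1 liver. The coefficient of variation was 55.0% in CS livers (n = 4), 22.1% in CS livers without replicate 3 (n = 3) and 12.1% in PS livers (n = 5).

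Srebf2, which encodes SREBP-2, missed the unadjusted threshold. It ran from 26.6 to 53.2 CPM in CS livers (median 38.6, n = 4) and from 48.8 to 57.4 CPM in PS livers (median 51.7, n = 5), overlapping through CS replicate 3 alone. Its log2 difference was 0.42 ± 0.19 (SE; adjusted p = 0.672, edgeR). Without CS replicate 3 it was 0.60 and passed the unadjusted threshold (adjusted p = 0.418), and without CS replicate 4 it was 0.27 (adjusted p = 0.718, edgeR). Mbtps1, the site-1 protease, had 49.4 ± 9.25 CPM in CS livers (SD, n = 4) and 43.9 ± 3.24 in PS livers (SD, n = 5). Mbtps2, the site-2 protease and the lowest of the 7, had 5.51 ± 1.98 and 6.51 ± 1.51 CPM. For the proteases the log2 differences were −0.17 ± 0.17 (adjusted p = 0.894) and 0.24 ± 0.30 (adjusted p = 0.93, edgeR), and the groups overlapped for each. Without CS replicate 2, the lowest CS liver for both, they were −0.28 (adjusted p = 0.408) and 0.03 (adjusted p = 0.969, edgeR). Leaving out any 1 liver gave −0.28 to −0.07 for Mbtps1 and 0.03 to 0.42 for Mbtps2, and neither passed the unadjusted threshold.

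**Figure D2:**
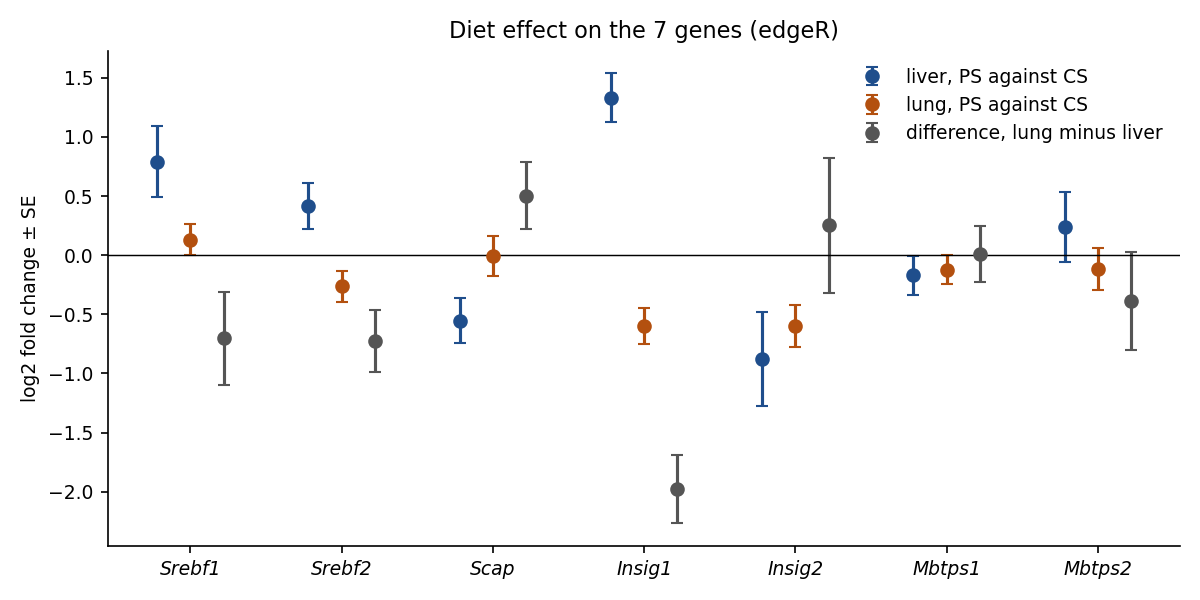
Log2 fold change of PS against CS (y axis; points, bars ± SE from edgeR) for each of the 7 genes in liver and lung, with the difference of those effects, lung minus liver. Insig1 lies at 1.33 in the liver and at −0.60 in the lung. Insig2 lies below 0 in both tissues, at −0.88 and −0.60.

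Insig1 belongs to a larger group of SREBP targets, and the others are given beside it. Of 22 listed sterol-responsive SREBP-2 targets, 21 were tested in the liver and all 21 had higher fitted values on the PS diet (median log2 difference 1.06, against −0.03 over all genes). At the unadjusted threshold 17 of the 21 passed, each of them higher, and none passed after adjustment (edgeR). That last count depended on the method. After adjustment DESeq2 called 13 of the list, all higher, the fit without the filter on low counts 4, and limma 2 or 1. With the GC trend removed it was 0. Leaving out any 1 liver gave 17 or 18 at the unadjusted threshold, and after adjustment 6 passed without CS replicate 2 and 2 without CS replicate 3. Msmo1, which encodes a C-4 methyl sterol oxidase, was 4.39-fold higher (adjusted p = 0.054) and Nsdhl, a sterol dehydrogenase, 2.89-fold (adjusted p = 0.0974, edgeR). Of 17 lipogenic SREBP-1 targets, 15 were tested, of which 5 passed the unadjusted threshold, 4 upward and 1 downward, and the median was 0.25. Thrsp, a regulator of lipogenesis, was 3.54-fold higher, Mid1ip1, its relative, 3.05-fold and Fasn, fatty acid synthase, 1.99-fold (adjusted p = 0.175, 0.175 and 0.227, edgeR).

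The other lists hold partners that carry, cut or remove the sensors and genes related to them. None of 12 genes for exit from the endoplasmic reticulum and Golgi retention of SCAP passed the unadjusted threshold in the liver, and their median was −0.03. The smallest p among them were those of the coat genes Sec23b, Sec24c and Sec24a, with log2 differences of 0.35, −0.31 and 0.29 (adjusted p = 0.728, 0.737 and 0.774, edgeR). Of 17 genes for protein turnover around INSIG and SREBP, Erlin1 was higher (0.52 ± 0.24) and Ube2j2, a ubiquitin-conjugating enzyme, lower (−0.40 ± 0.16) at the unadjusted threshold (SE; adjusted p = 0.657 and 0.585, edgeR). Of the other substrates of the proteases, 7 of 8 were tested and Creb3l3 was lower by that threshold, at −0.44, while Creb3l2 and Gnptab had 0.51 and 0.19 (adjusted p = 0.594, 0.713 and 0.878, edgeR). Among the other proteins with a sterol-sensing domain, 5 of 6 were tested, of which 1 passed the unadjusted threshold upward and 0 downward, while Ptch1, which missed it, had 0.18 (adjusted p = 0.955, edgeR). None of 9 LXR receptors and targets passed, with Pltp, Abcg1 and Mylip nearest to it (0.81, −0.68 and −0.29; adjusted p = 0.699, 0.726 and 0.846, edgeR). Of 13 transcription partners, Lpin1 (2.69 ± 0.49) and Nfyb (0.50 ± 0.15) were higher at the unadjusted threshold, and Nfyc had −0.38 ± 0.19 (SE; adjusted p = 0.105, 0.361 and 0.707, edgeR). In the edgeR fit of all livers, none of the lists held a gene that passed after adjustment, but other fits called some. DESeq2 called 3 SREBP-1 targets, 1 other sterol-sensing domain protein and 2 transcription partners, all higher. Without CS replicate 2, edgeR called 2 SREBP-1 targets, 1 other sterol-sensing domain protein and 1 transcription partner, all higher.

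Clock genes, feeding genes and a few markers of other cell types also differed between these livers at the unadjusted threshold. Of 13 clock genes, 11 passed the unadjusted threshold, 8 upward and 3 downward, among them Arntl, an activator of the clock, at −1.57, Nr1d1, its repressor, at 1.29 and Npas2 at −1.88 (adjusted p = 0.0974, 0.103 and 0.175, edgeR). Of 8 genes of the fasting and feeding response, 4 were lower and 0 higher by that threshold, with Fgf21, a fasting hormone, at −1.57, Igfbp1, repressed by insulin, at −1.60 and Irs2 at −1.18 (adjusted p = 0.321, 0.507 and 0.542, edgeR). Leaving out 1 liver gave 5 to 8 clock genes upward and 1 to 4 feeding genes downward, with the 1 feeding gene without CS replicate 1. Limma, with either pseudocount, and the replicate block each gave 1 feeding gene higher and 1 lower. After adjustment, DESeq2 called 3 clock genes upward and 2 downward, and 1 feeding gene downward. Without CS replicate 2, edgeR called 6 clock genes upward and 1 downward after adjustment, and 1 feeding gene in each direction. The hour of collection is not given in the sources used here. Of 4 adipocyte markers, Adipoq, Plin1 and Lep had at most 4 reads in any liver. The fourth, Cidec, which encodes a lipid droplet protein, was higher in livers than those markers, at 17.9 to 57.3 CPM per kilobase in CS and 2.65 to 16.8 in PS livers, and was lower at the unadjusted threshold. The sum of 5 macrophage markers ran from 65.6 to 110.5 and from 25.4 to 77.9, with 1 of 5 lower. None of the 6 hepatocyte, 4 endothelial or 4 stromal markers passed the unadjusted threshold, and no marker of any cell type passed after adjustment (edgeR). The part of clock, feeding and cell makeup in the values of the sensors was not tested.

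**Figure D3:**
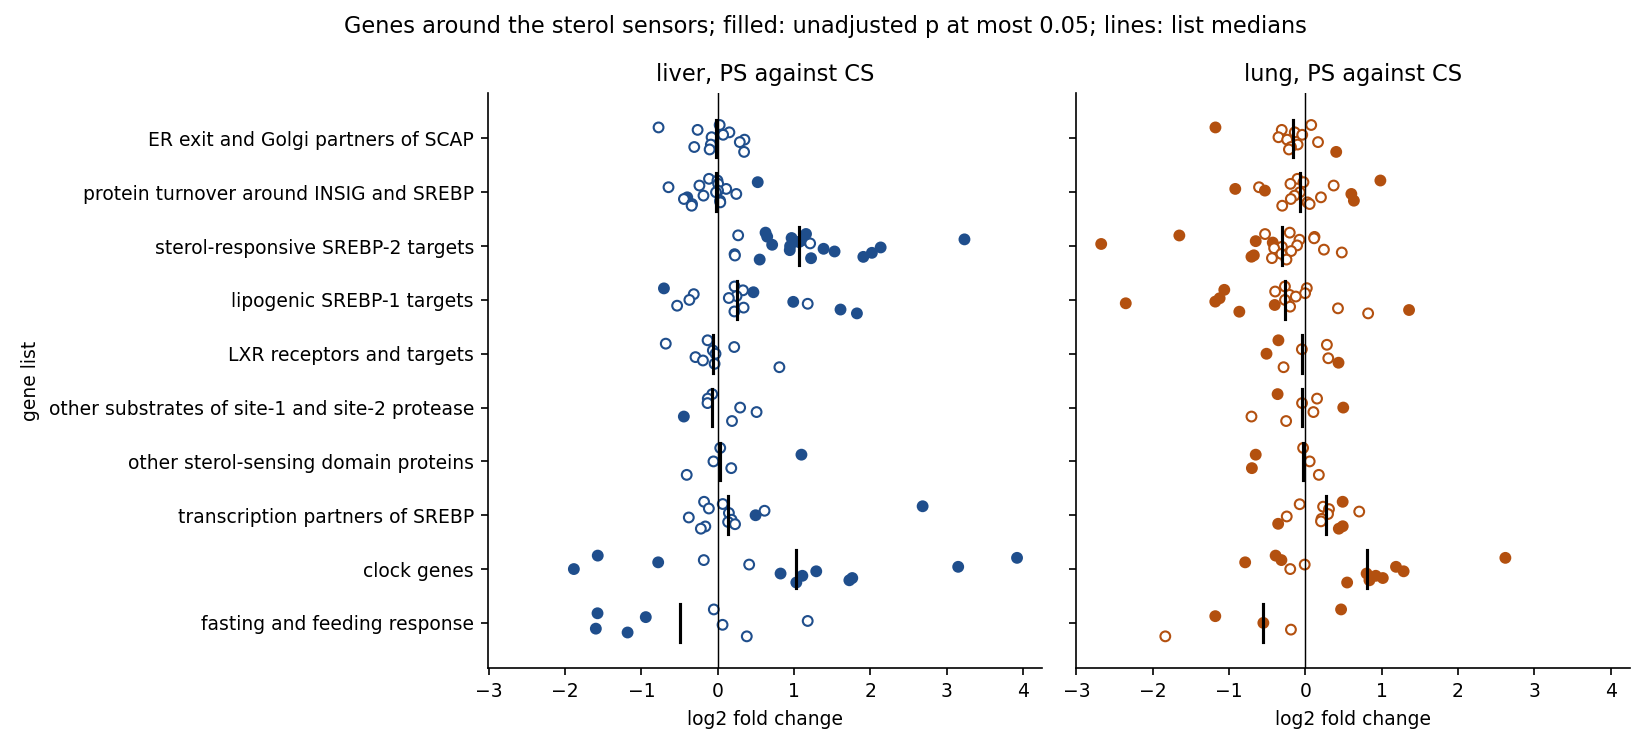
Log2 fold change of PS against CS (x axis) for each tested gene of 10 lists around the sensors (y axis), in liver and lung; filled points have an unadjusted p of at most 0.05 and black lines are list medians. The SREBP-2 targets have a median of 1.06 in the liver and −0.31 in the lung, and the clock genes 1.03 and 0.80.

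In the lung, Insig1 fell in the PS group and was the only one of the 7 that passed after adjustment. Insig2 was lower by nearly the same fold but did not pass, and the escort and the proteases had log2 differences of −0.12 or nearer to 0. The test covered 16717 genes, of which 4.43% were lower and 4.80% higher after adjustment at 0.05. At an unadjusted p of 0.05, Insig1 and Insig2 were lower, against 14.5% of all genes. In 4 of the 7 genes every PS lung was below every CS lung (Insig1, Insig2, Srebf2 and Mbtps1), against 18.8% of all genes.

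Insig1 stood at 73.6, 61.5 and 68.8 CPM in CS lungs 1 to 3 and at 50.2, 38.4 and 45.9 CPM in PS lungs 1 to 3. The groups did not overlap. It fell by 0.60 on the log2 scale, with an SE of 0.15 (adjusted p = 0.0457, edgeR), or 1.52-fold. With the trend over GC content removed the log2 difference was −0.49 with an adjusted p of 0.0692. The adjusted p was 0.0227 without PS replicate 1 and between 0.0501 and 0.15 without any other lung: 0.135, 0.113 and 0.15 without CS replicates 1, 2 and 3, and 0.139 and 0.0501 without PS replicates 2 and 3.

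Insig2 stood at 68.5, 56.1 and 56.4 CPM in CS lungs and at 48.8, 36.5 and 34.5 CPM in PS lungs. The groups did not overlap here either. The log2 difference was −0.60 with an SE of 0.18 (adjusted p = 0.0624, edgeR), and it passed in 4 of 14 alternatives: with DESeq2, without the filter on low counts, with the replicate number as a block and without PS replicate 1 (adjusted p = 0.0263, 0.035, 0.0475 and 0.016). In the other 10 the adjusted p was between 0.0584 and 0.185, among them 5 of the 6 fits that left out 1 lung.

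Srebf2 had 159, 137 and 140.0 CPM in CS lungs and 122, 125 and 115 CPM in PS lungs, without overlap, and a log2 difference of −0.26 ± 0.13 (SE; adjusted p = 0.214, edgeR). Srebf1 had 79.6, 75.1 and 75.6 CPM in CS lungs against 78.7, 80.0 and 93.4 CPM in PS lungs, a log2 difference of 0.13 ± 0.13 (adjusted p = 0.534, edgeR) that turned to −0.06 with the GC trend removed. Scap had 51.9, 50.5 and 51.0 CPM on the CS diet and 44.3, 45.1 and 63.4 CPM on the PS diet, with PS replicate 3 above all other lungs. Its log2 difference was −0.01 ± 0.17 (adjusted p = 0.987, edgeR), and the sign turned when CS replicate 3, PS replicate 1 or PS replicate 2 was left out. Mbtps1 had 120.1 ± 2.75 CPM in CS and 110.3 ± 3.55 CPM in PS lungs (SD, n = 3 each), and Mbtps2 had 20.9 ± 0.10 and 19.3 ± 3.49 CPM. For the proteases the log2 differences were −0.12 ± 0.12 and −0.12 ± 0.18 (SE; adjusted p = 0.534 and 0.694, edgeR).

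The calls that follow depended on which lungs were kept: without CS replicate 1, CS replicate 3 or PS replicate 2 no gene of the lists described here passed after adjustment, and without CS replicate 2 only 1 SREBP-2 target did. Over all genes those fits called 23, 0, 9 and 26, against 1542 with all 6 lungs. More genes were called without PS replicate 1 (1752 higher and 1197 lower) or PS replicate 3 (947 higher and 1309 lower). In the lung 20 of the 22 SREBP-2 targets were tested, and 3 fell and 0 rose after adjustment. Their median log2 difference was −0.31, against 0.01 over all genes. Among them were Idi1, an isomerase of the isoprenoid steps, at −2.67 ± 0.35 (SE; adjusted p = 0.0154) and Sc5d, a sterol desaturase, at −0.67 ± 0.14 (adjusted p = 0.0322, edgeR). Of the 17 SREBP-1 targets, 3 fell and 0 rose after adjustment: Acly, which makes cytosolic acetyl-CoA, at −1.06, Gpam, an acyltransferase of glycerolipid synthesis, at −2.35 and Fads2, a fatty acid desaturase, at −1.12 on the log2 scale (adjusted p = 0.0163, 0.0163 and 0.0326, edgeR). In the turnover list, Aup1 rose by 0.98 and Rnf139, also called Trc8, a ubiquitin ligase of the endoplasmic reticulum, fell by 0.92 (adjusted p = 0.0172 and 0.0326, edgeR). Of the 5 tested of the other sterol-sensing domain proteins, 2 fell and 0 rose after adjustment, among them Ptch1, the Hedgehog receptor, which fell by 0.70 (adjusted p = 0.0395, edgeR). None of these 5 passed after adjustment with the GC trend removed or by limma with either pseudocount.

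The other lists held no gene that passed after adjustment in the lung, apart from the clock. Paqr3, which tethers SCAP at the Golgi, had a log2 difference of −1.18, Sec31a 0.41 and Sar1a −0.31 (adjusted p = 0.101, 0.12 and 0.232). Of the LXR list, Abca1, Mylip and Nr1h3 had −0.35, −0.51 and 0.44 (adjusted p = 0.116, 0.117 and 0.139). Of the protease substrates, Creb3l1, Atf6 and Creb3l4 had 0.50, −0.36 and −0.70 (adjusted p = 0.0826, 0.0919 and 0.185), and of the transcription partners, Usf2, Crebbp and Usf1 had 0.44, 0.49 and 0.49 (adjusted p = 0.0594, 0.0613 and 0.0624). Angptl4 of the feeding list had 0.47 (adjusted p = 0.116). Of the 13 clock genes, 4 rose and 1 fell after adjustment (edgeR): Nr1d2 by 0.80, Nr1d1 by 1.29, Per1 by 0.92 and Ciart by 2.62 rose, and Cry1 fell by 0.79. None of the 5 alveolar type II, 4 alveolar type I, 4 B cell or 4 adipocyte markers passed after adjustment, and 1 of 4 endothelial and 1 of 4 tested macrophage markers were lower. The endothelial and macrophage lists each also had 1 marker higher at the unadjusted threshold, and their median log2 differences were 0.05 and 0.18. The summed alveolar type II markers ran from 8469 to 8951 CPM per kilobase in CS lungs and from 9602 to 16300 in PS lungs, without overlap, with 1 of the 5 higher and 1 lower at the unadjusted threshold. At that threshold 2 of 4 B cell markers were lower and 0 higher, and their sum ran from 28.6 to 50.8 in CS lungs and from 21.9 to 31.6 in PS lungs. The 4 adipocyte markers had a median log2 difference of −1.46, and none passed that threshold. Their sum ran from 4.26 to 21.4 in CS lungs and from 2.15 to 12.8 in PS lungs. The sum of 4 heart muscle markers ran from 28.15 to 50.0 in CS lungs and from 6.13 to 136 in PS lungs. The part of the clock and of cell makeup in the lung values was not tested.

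The diet effect on Insig1 differed between the tissues in the fit over all libraries, a call that 9 of 20 alternatives kept. Subtracting the liver effect from the lung effect, in 1 fit over all 15 libraries, gave −1.98 ± 0.29 on the log2 scale (SE; adjusted p = 0.0296, edgeR). Insig1 was 1 of 3 genes with a lower effect in the lung after adjustment, which is 0.0170% of the 17696 tested, and Msmo1 was another. That fit treats liver and lung of a mouse as separate. With the mouse as a block, over the 12 libraries of the 6 mice with both tissues, the difference was −1.84 ± 0.33 (SE; adjusted p = 0.454, edgeR), and 0 genes of the table passed after adjustment, against 979 at the unadjusted threshold. Leaving out 1 library kept the call in 5 of 15 fits, with adjusted p from 0.00572 to 0.187 (edgeR). At an unadjusted p of 0.05, 2 of the 7 had a lower effect in the lung, against 5.40% of all genes: Insig1 and Srebf2, the latter at −0.73 ± 0.26 (SE; adjusted p = 0.369). With the block Srebf2 had −0.54 and did not pass the unadjusted threshold. Srebf1 (−0.70 ± 0.39), Scap (0.50 ± 0.28), Insig2 (0.25 ± 0.57), Mbtps1 (0.01 ± 0.24) and Mbtps2 (−0.39 ± 0.41) did not pass either threshold (edgeR).

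Liver and lung carried the sensors at different levels on the same diet. On the CS diet, Insig2 was 26.8-fold, Scap 5.53-fold and Insig1 2.34-fold higher in the liver, while Srebf2 was 1.44-fold higher in the lung. After adjustment, 3 of the 7 were lower and 1 higher in the lung, against 30.0% and 37.0% of 17696 genes. On the PS diet, Insig2 was 22.5-fold, Insig1 9.21-fold, Scap 3.90-fold and Srebf1 2.05-fold higher in the liver, so that 4 of the 7 were lower in the lung, against 30.7% of all genes. The median gene was 0.18 higher in the lung on the log2 scale under TMM on each diet, and 0.30 (CS) or 0.34 (PS) higher with DESeq2 size factors. The TMM factors ran from 0.6202 to 0.7403 in livers and from 1.629 to 1.855 in lungs, and the folds rest on them. The deposited FPKM, fragments per kilobase at a common depth, lack these factors and were not tested between tissues. There CS Insig1 averaged 20.37 in livers and 22.02 in lungs, and PS Srebf1 11.65 and 14.99. The other folds above kept their direction, such as CS Insig2 at 183.3 and 17.42.

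The tests were made on the differences as fitted, and the values relative to the median gene, given after them, were not tested. The lung minus liver difference of Insig2 was −4.74 on the log2 scale on the CS diet and −4.49 on the PS diet (adjusted p = 4.06e-07 and 5.12e-07, edgeR), or −4.92 and −4.67 relative to the median gene. For Scap it was −2.47 and −1.96 (adjusted p = 6.06e-08 and 4.54e-07, edgeR), or −2.64 and −2.14 relative to it. For Insig1 it was −1.23 and −3.20 (adjusted p = 8.64e-05 and 2.81e-09, edgeR), or −1.40 and −3.38. For Srebf1 it was −0.33 and −1.03 (adjusted p = 0.322 and 0.00375, edgeR), or −0.50 and −1.21, and the fitted CS value turned to 0.13 without CS liver replicate 3.

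As fitted with TMM scaling, Srebf2 and the proteases lay nearer to 0. In FPKM each of them averaged higher in lungs on each diet, with CS Srebf2 at 5.568 in livers and 20.26 in lungs. For Srebf2 the fitted difference was 0.52 ± 0.19 (CS) and −0.20 ± 0.18 (PS; SE; adjusted p = 0.0219 and 0.34, edgeR), and relative to the median gene 0.35 and −0.38. The CS difference of Srebf2 missed the threshold with the mouse as a block, without CS liver replicate 4 and without CS lung replicate 1 (adjusted p = 0.123, 0.0608 and 0.079, edgeR). Mbtps2 had 0.55 ± 0.30 (CS) and 0.16 ± 0.28 (PS; SE; adjusted p = 0.115 and 0.638, edgeR). On the CS diet Mbtps2 passed in 4 of 20 alternatives: with at least 10 counts in every library, with DESeq2 size factors, by DESeq2's test and without CS liver replicate 4 (adjusted p = 0.017, 0.0494, 0.0328 and 0.0465). Mbtps1 did not pass on either diet, at −0.09 and −0.08 (adjusted p = 0.674 and 0.686, edgeR). The fitted difference of Mbtps1 was above 0 with DESeq2 size factors, at 0.05 (CS) and 0.08 (PS).

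**Figure D4:**
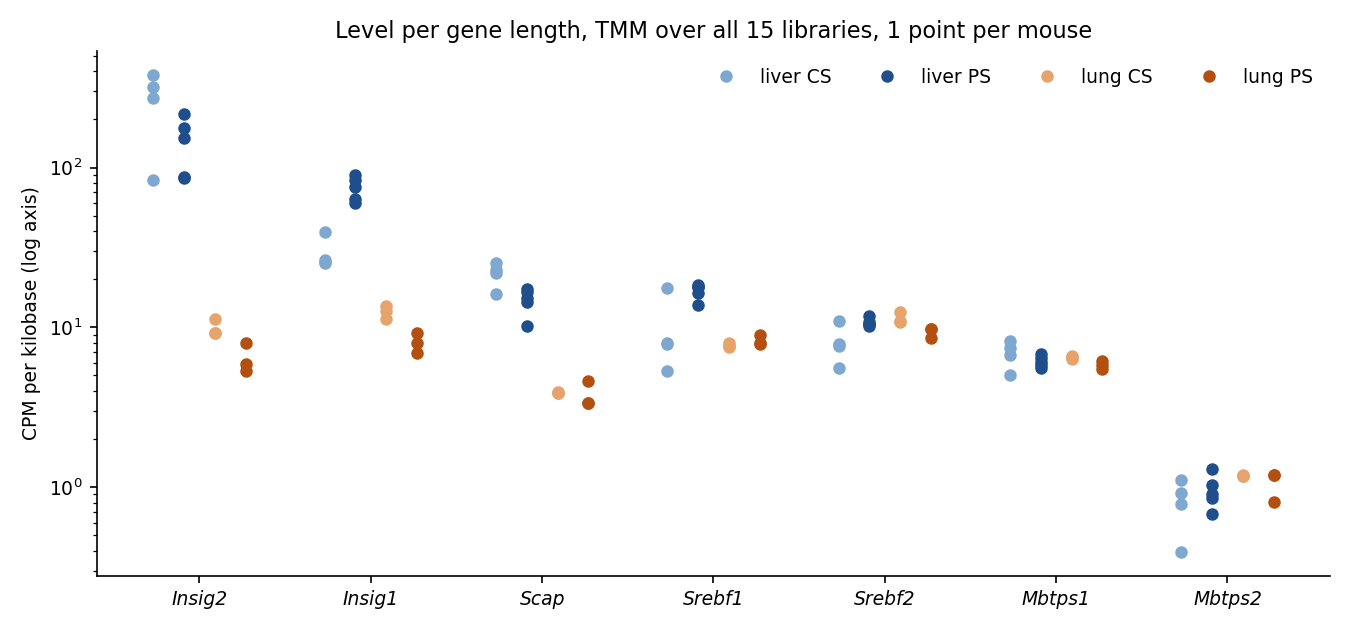
CPM per kilobase of gene length (log axis; TMM over all 15 libraries) of the 7 genes, with 1 point per mouse and a column per group of tissue and diet. Insig2 averages 265 in CS livers and 9.87 in CS lungs, and Mbtps2 lies lowest in each group, between 0.80 and 1.17 on average.

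Per gene length, Insig2 was the most abundant of the 7 in the liver, at 265 ± 128 CPM per kilobase on the CS diet (SD, n = 4) and 144 ± 57.2 on the PS diet (SD, n = 5). In CS livers it was followed by Insig1 (29.2 ± 6.91), Scap (21.5 ± 3.79), Srebf1 (9.71 ± 5.39), Srebf2 (7.98 ± 2.21), Mbtps1 (6.86 ± 1.39) and Mbtps2 (0.80 ± 0.30). The ranges of Scap, Srebf1, Srebf2 and Mbtps1 overlapped from each to the next. In PS livers the order was Insig2, Insig1 (74.2 ± 12.6), Srebf1 (16.9 ± 1.91), Scap (14.8 ± 2.79), Srebf2 (10.8 ± 0.62), Mbtps1 (6.14 ± 0.49) and Mbtps2 (0.95 ± 0.23), and Insig2 overlapped Insig1, which it did not in CS livers. In CS lungs the levels were closer, from Insig1 (12.5 ± 1.09), Srebf2 (11.5 ± 0.93) and Insig2 (9.87 ± 1.15), which overlapped from each to the next, through Srebf1 (7.74 ± 0.25) and Mbtps1 (6.47 ± 0.15) to Scap (3.90 ± 0.05) and Mbtps2 (1.17 ± 0.01; SD, n = 3). In PS lungs Srebf2 (9.35 ± 0.62), Srebf1 (8.27 ± 0.58), Insig1 (8.05 ± 1.16), Insig2 (6.40 ± 1.40) and Mbtps1 (5.82 ± 0.35) overlapped from each to the next, above Scap (3.78 ± 0.70) and Mbtps2 (1.06 ± 0.22).

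Ratios within a library show how the balance of the pair of INSIG genes differed, as levels per kilobase and with no test. Insig1 over Insig2 was 0.093, 0.315, 0.124 and 0.067 in CS livers and 0.872, 0.275, 0.727, 0.509 and 0.543 in PS livers. Only CS replicate 2 and PS replicate 2 crossed. In the lung the ratio was 1.21, 1.23 and 1.37 on the CS diet and 1.16, 1.18 and 1.495 on the PS diet, so all 6 lungs were above all 9 livers and the diets overlapped. The sum of both genes was 294 ± 130.2 CPM per kilobase in CS livers (SD, n = 4) and 218 ± 58.8 in PS livers (SD, n = 5), with overlap, and 22.3 ± 2.14 and 14.4 ± 2.42 in CS and PS lungs (SD, n = 3), without overlap.

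Srebf1 over Srebf2 was 0.679, 1.04, 1.61 and 1.45 in CS livers and between 1.36 and 1.71 in PS livers (median 1.56, n = 5). In lungs it was 0.640, 0.700 and 0.688 on the CS diet and 0.820, 0.816 and 1.03 on the PS diet. Srebf2 was thus the more abundant per length in 5 of 6 lungs and in 1 of 9 livers. Scap over the sum of both INSIG genes ran from 0.054 to 0.147 in CS livers and from 0.055 to 0.095 in PS livers, and from 0.160 to 0.188 in CS lungs and from 0.197 to 0.344 in PS lungs. Every lung had more Scap per INSIG mRNA than every liver.

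**Figure D5:**
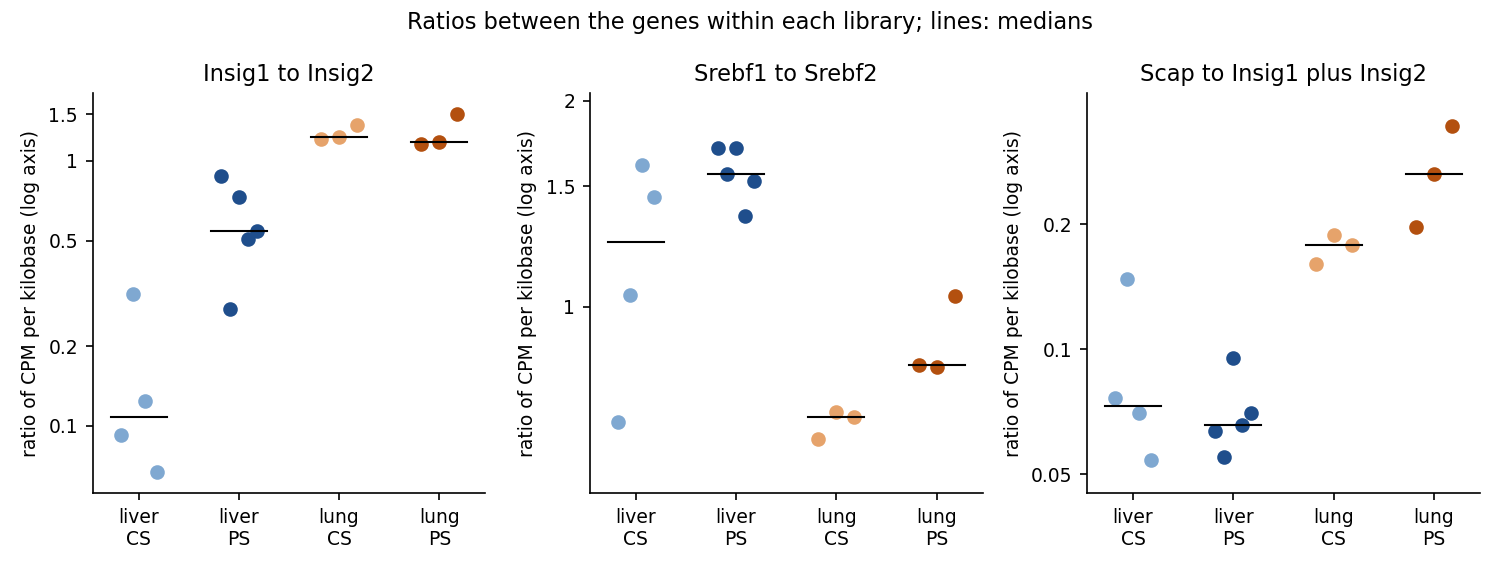
Ratios of CPM per kilobase within each library (log axes), with 1 point per mouse and a line at the median of each group of tissue and diet. The median of Insig1 over Insig2 is 0.108 in CS livers, 0.543 in PS livers, 1.23 in CS lungs and 1.18 in PS lungs.

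The genes whose levels varied most like each sensor were ranked by Pearson's r of their deviations from the tissue mean over the 15 libraries, among 10071 genes. The points share diet, library and, for 6 mice, the animal, so the values are a description. The 3 nearest to Insig1 included the cell cycle kinase gene Wee1 (r = 0.937) and Msmo1 (0.935), and those to Srebf2 included Kalrn (0.919) and Tmtc4 (0.877). Srebf1 was nearest to Sipa1l2 (0.932), Mid1ip1 (0.907) and Mras (0.890). Those to Insig2 included Tgoln1 (0.947) and Tmem135 (0.937), and those to Scap Ttc3 (0.926) and Cyp4f17 (0.924). Mbtps1 was nearest to Smad9 (0.935), Tgfbr2 (0.902) and Sec24d (0.902), and Mbtps2 to Zfp281 (0.902), Emc2 (0.895) and Ola1 (0.893). Of the 21 pairs ranked in all, 4 were also found by Spearman's rho, among them Wee1 for Insig1.

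Some of these genes share exon bases with a neighbour, so their counts can gain or lose reads there. Srebf1 shares 109 exon bases with Rai1 on the other strand (5888 counts for Rai1 over all libraries), and Scap shares 985 with 5830462I19Rik on the other strand (9 counts). Mbtps2 contains the 2867 bases of Yy2, to which no read was counted. The strand setting of the counting is not given in the sources used here.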

How the data were processed

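Polyadenylated RNA of frozen liver and lung was sequenced in paired reads. Per the submitters' processing notes, reads were aligned with HISAT2 2.0.5 and counted with featureCounts 1.5.0-p3, and the study used DESeq2 1.20.0. The authors deposited raw counts per gene, and FPKM values, fragments per kilobase of gene at a common depth.

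Counts were analysed here with edgeR 4.0.16 (TMM scaling, its filter on low counts, robust quasi-likelihood test, two-sided, Benjamini-Hochberg adjustment over all genes tested). Liver and lung were fitted separately for diet, and 4 group means over 15 libraries gave the tissue contrasts and the difference of diet effects. SE is the log2 fold change over the square root of F. Levels are CPM, and levels per kilobase use the deposited gene length. Alternatives used DESeq2 1.42.0, limma 3.58.1 on the FPKM values (pseudocount 1 or 0.1), other filters, removal of the GC trend, replicate blocks and leaving out each library. On simulated data with known changes, the liver test called 15 of 99 genes changed by 1 and 78 of 93 changed by 2 on the log2 scale, the lung test 36 of 98 and 79 of 96, and the test of the difference 3 of 99 and 45 of 100.

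The 7 genes and the lists were chosen with earlier results of these data known. Named genes were all 7, the genes of each list with adjusted p under 0.05 (up to 5; otherwise the 3 with the smallest p), and the 3 most alike genes. Some genes that this rule names are not reported here. No 2 libraries of a group differed by less than counting noise. Replicates are separate mice. Liver and lung of 6 mice are paired by the mouse in their labels, though their deviations from the group means correlated weakly (r from −0.05 to 0.11).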

Additional observations from a re-analysis of the deposited data

Results flagged for a closer look

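Insig1 in CS livers was marked because its highest value, 83.2 CPM in replicate 3, lay far from the other 3 for the spread of the group. Of 20 groups of 4 or 5 values checked, this was the only one, and chance marks about 1 in 20. Without that liver, the log2 difference of Insig1 in the liver was 1.51 with an adjusted p of 0.0486 (edgeR).

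The diet effect on Insig1 differed between the tissues, by −1.98 on the log2 scale (lung minus liver, adjusted p = 0.0296, edgeR): all 5 PS livers were above the CS livers and all 3 PS lungs below the CS lungs. Msmo1 differed in the same way, by −2.58 (adjusted p = 0.0296, edgeR), from effects of 2.13 in the liver (adjusted p = 0.054) and −0.41 in the lung (adjusted p = 0.195). Neither passed after adjustment with the mouse as a block, where no gene did.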

How the results depend on the processing

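Of 644 refits of the 7 genes, 586 kept their direction and their side of the adjusted threshold, 24 turned direction, 22 lost and 12 gained a call. In the liver, DESeq2 called 1 of the 7 (Insig1, 1.33) and 163 genes in all, and the fit with no filter 1 (Insig1, 1.33) and 26. All genes called were 2 with at least 10 counts in every library, 6 and 4 by limma on FPKM with pseudocounts 1 and 0.1, and 0 with the GC trend removed. The livers of the 6 mice with both tissues, a setting chosen after seeing the data, gave 2 of the 7 at the unadjusted threshold and 0 genes after adjustment. With the replicate number as a block, the liver gave 2 of the 7 at the unadjusted threshold and 0 genes after adjustment, and the lung 2 of the 7 after adjustment. Numbers in the 2 diets of a tissue mark different mice and their deviations were not alike (r from −0.23 to 0.10), so this block pairs nothing.

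In the lung, 2 of the 7 were called by DESeq2 (3090 genes in all) and with no filter, and 0 by limma with either pseudocount (Insig1 −0.57 and −0.60) or with the GC trend removed (Insig1 −0.49, Srebf1 −0.056). For the difference between tissues, DESeq2 called 228 genes and the fit with no filter 10, and the mouse block 0 of the 7 and 0 genes (Insig1 −1.84; 1 of the 7 at the unadjusted threshold). With at least 10 counts in every library, 6715 (CS) and 6820 (PS) genes differed between tissues, out of fewer tested, Srebf2 stood at 0.092 on the PS diet, and Mbtps1 at 0.18 (CS) and 0.22 (PS). Mbtps1 also turned with DESeq2 size factors (0.045 and 0.085), by DESeq2's test (0.045 and 0.085) and with the mouse block (0.074, PS), and in the difference with no filter (−0.0040). The mouse block changed no other call but that of Srebf2 on the CS diet.

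Leaving out 1 library gave 0 to 1 of the 7 in the liver (2 to 4 at the unadjusted threshold) and 0 to 65 genes in all, the latter without CS replicate 2. Insig1 ran from 1.26 to 1.51 there. In the lung it gave 0 to 2 of the 7, 0 to 2949 genes (most without PS replicate 1, 0 without CS replicate 3), Insig1 from −0.70 to −0.50, Scap from −0.19 to 0.079 and Mbtps2 from −0.20 to 0.029. In the difference it gave 0 to 1 of the 7 and 0 to 12 genes, Insig1 from −2.16 to −1.88, with adjusted p from 0.00572 to 0.187, and Mbtps1 from −0.094 to 0.13. On the CS diet, lung minus liver ran from −0.47 to 0.13 for Srebf1 and from −0.21 to 0.018 for Mbtps1. The cause of these changes was not tested. At these depths Mbtps2 rests on 42 to 156 reads per liver, the lowest of the 7.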
